A study of Mus musculus with 6 samples.

Results

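SR proteins and heterogeneous nuclear ribonucleoproteins (hnRNPs) were examined as one set of splicing genes in the anterior prostate (AP) of mice with over-activated Notch1 signaling. The set was every row whose symbol is Srsf or Hnrnp followed by its family letters or number, plus Tra2a, Tra2b, Srrm1, Srrm2, Son, Luc7l, Luc7l2 and Luc7l3. This gave 39 of 55076 rows, namely 11 Srsf genes, 20 Hnrnp genes and the 8 genes named singly. Of these, 38 had a mean of at least 1 FPKM over all mice and were tested. The remaining one, Srsf12, gave 9, 12 and 4 reads in the OEx mice and 3, 3 and 0 reads in the Ctrl mice, so its level was not resolved at this depth.

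Bulk RNA-seq was compared between 3 OEx and 3 Ctrl mice, all males of 20 weeks. OEx mice were PbsnCre Rosa26 N1ICD/+, in which Cre under the probasin promoter switches on the Notch1 intracellular domain (N1ICD), with a co-inserted Egfp, from the Rosa26 locus in prostatic epithelium. Ctrl mice were Rosa26 N1ICD/+ without Cre and so carried the silent allele too, although the labels call their genotype wild type. The strain background was not given in the sources used here, and the labels number the samples without saying whether the mice were littermates. The labels name the cell type as anterior prostatic cells, but whole AP was extracted, so every value is a mixture over epithelium and stroma. Values are FPKM, fragments scaled by exon length and by a denominator for each library. They set genes side by side per unit of exon length. The denominators were not the recovered read totals and differed from them in opposite directions in OEx and Ctrl, as given below.

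The SR proteins carry RNA recognition motifs and a domain rich in arginine-serine dipeptides. They bind exonic enhancers and recruit the U1 and U2 small nuclear ribonucleoproteins (snRNPs) to the splice sites. The hnRNPs coat nascent transcripts, and many of them repress nearby splice sites, so that the balance of both families is a textbook determinant of exon choice. Several of these proteins limit their own mRNA by splicing in an exon with a premature stop codon, which sends the transcript to nonsense-mediated decay (NMD). Activated Notch1 itself acts on transcription in the nucleus through the DNA-binding protein RBPJ, whose core recognition sequence is TGGGAA.

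Promoter sequence is shown for Hnrnph1 and Srsf9, because they had the highest fold change in the set and the one called decrease. Both are the 250 bases upstream of the RefSeq start on the plus strand of GRCm38.p6, at chr11:50376740-50376989 for Hnrnph1 and chr5:115326927-115327176 for Srsf9. Capitals mark a match to the RBPJ core TGGGAA on either strand.
Hnrnph1: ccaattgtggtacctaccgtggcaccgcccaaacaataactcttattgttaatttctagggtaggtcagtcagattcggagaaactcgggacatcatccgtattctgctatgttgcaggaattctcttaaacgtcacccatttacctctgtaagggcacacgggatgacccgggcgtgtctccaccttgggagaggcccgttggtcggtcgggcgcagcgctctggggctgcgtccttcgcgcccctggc
Srsf9: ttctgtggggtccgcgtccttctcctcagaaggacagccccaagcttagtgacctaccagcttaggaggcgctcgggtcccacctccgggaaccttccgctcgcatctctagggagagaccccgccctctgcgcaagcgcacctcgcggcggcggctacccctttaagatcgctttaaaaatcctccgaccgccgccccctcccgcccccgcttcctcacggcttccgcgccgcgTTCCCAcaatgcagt
The Srsf9 window held the RBPJ core once, on the minus strand and close to the start, and the Hnrnph1 window held no match. GC content was 65.2% in the Srsf9 window and 55.6% in that of Hnrnph1. Of the 36 tested members with a RefSeq window, 5 held TGGGAA on either strand (Srrm2, Srsf1, Srsf7, Srsf9 and Tra2b), which is 13.9% of them beside 23.6% of the 8875 tested genes with a window. The palindromic E-box CACGTG, a motif separate from the RBPJ core, occurred in 3 of the 36 (Hnrnpa3, Hnrnpd and Hnrnpf), 8.33% beside 10.02%. These are matches of letters, and they say nothing of whether a factor binds.

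Notch1, the overexpressed gene, was at 41.9, 47.6 and 78.9 FPKM in OEx mice 1 to 3 and at 5.18, 5.55 and 3.34 FPKM in Ctrl mice 1 to 3, without telling transgene reads from those of the gene itself. Recovered read totals were 14772005 to 17009325 in OEx and 17236735 to 18655462 in Ctrl. Luminal markers were present in every mouse, with Krt8 at 291 to 336 FPKM in OEx and 405 to 430 FPKM in Ctrl. The summed basal markers (Krt5, Krt14 and Trp63) were at 3.72 to 5.32 FPKM in OEx against 99.4 to 122 FPKM in Ctrl, and the 5 smooth muscle markers at 351 to 418 against 1043 to 2245 FPKM. The 6 fibroblast markers summed to 249.8, 252 and 25.1 FPKM in OEx 1 to 3, and the 7 leukocyte markers to 204, 188 and 15.9 FPKM, so that OEx 3 differed from the other OEx mice. Ctrl 3 held 16128 FPKM of 8 seminal vesicle genes, which summed to at most 4.36 FPKM in every other mouse. In each group replicates 1 and 2 were the closest pair of libraries. The chi-square per degree of freedom between their reads was 3.67 in OEx and 2.93 in Ctrl. For pairs with replicate 3 of the same group it was 50.4 to 86.7. Counts over the splicing genes are therefore also given without replicate 3 of both groups. Those counts rest on the 2 close pairs alone, so they cannot measure the spread between more distant mice.

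The set shifted upward in OEx. Of the 38 genes tested, 18 were called higher and 1 lower (limma on log2(FPKM + 1), Benjamini-Hochberg FDR under 0.05 and a fold change over 2), where 12.9% of all 12833 rows were called higher and 15.7% lower. By FDR alone 31 were higher, 2 lower and 5 neither, against 30.7% and 36.5% of all rows. The lowest OEx mouse exceeded the highest Ctrl mouse for 31 genes, and the reverse held for 2, beside 33.4% and 38.9% of all rows. The median log2 fold change was 0.98 over the set and -0.08 over all rows tested. Leaving out replicate 3 of both groups, an alternative chosen after seeing the data, gave 19 called higher, which included all 18, and the same 1 lower. In a bulk tissue, fewer cells of a type and less RNA per cell cannot be told apart, and the p-values measure the spread between these mice only. All 3 basal and all 5 smooth muscle markers were called lower in the same comparison (3 and 2 with library totals, 3 and 3 after correction for GC content and length), and the part of this in the changes of the splicing genes was not tested.

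**Figure D1:**
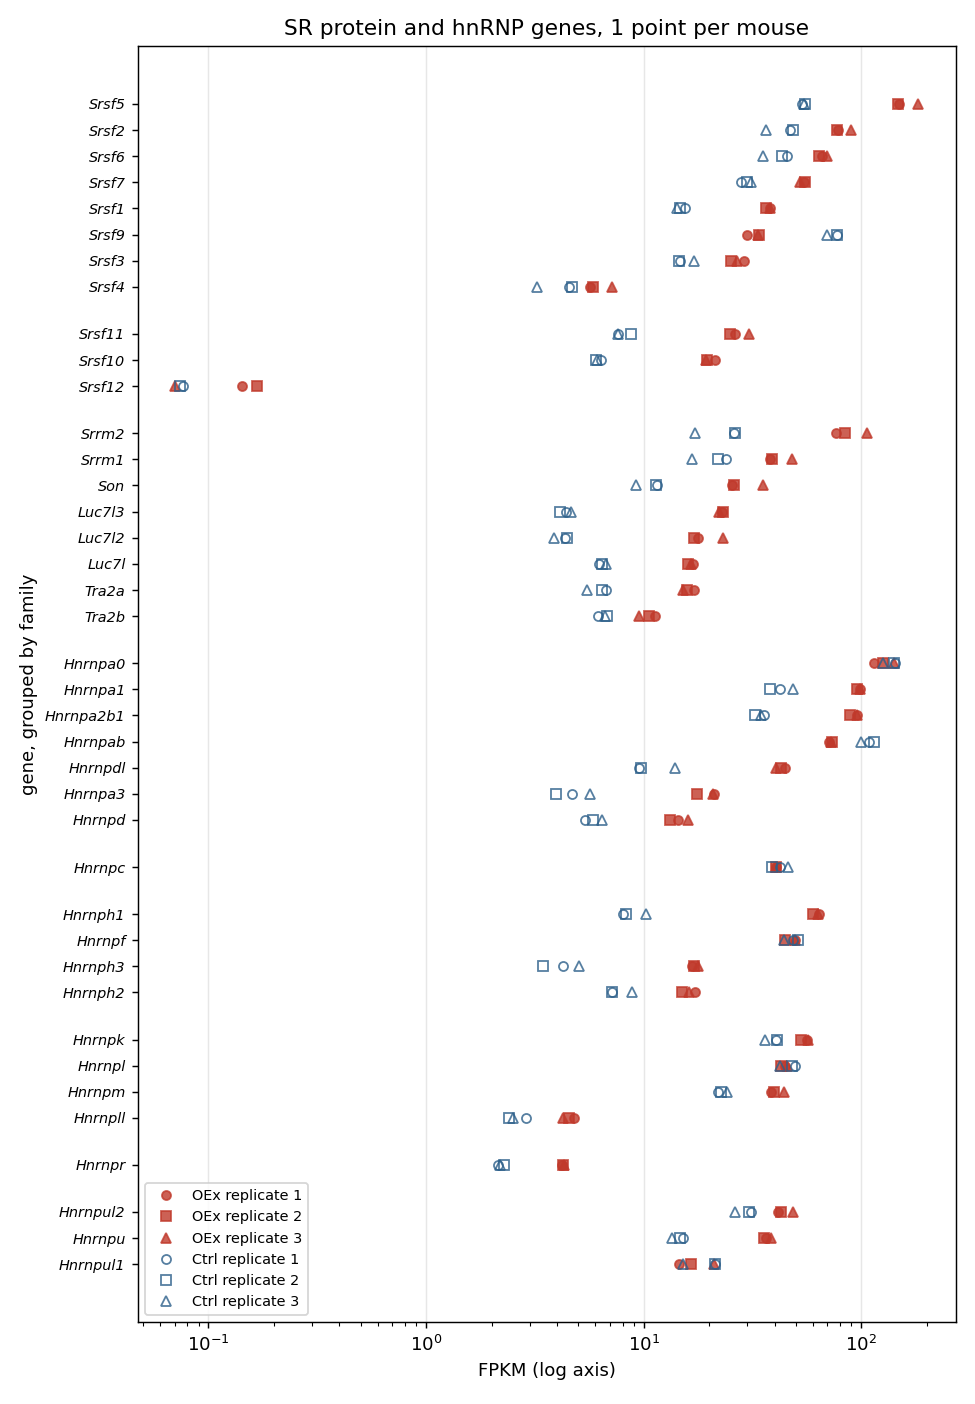
FPKM of the 39 SR protein and hnRNP genes on a log axis, 1 point per mouse, with OEx filled in red and Ctrl open in blue, and genes ordered within each family by their OEx mean. The groups do not overlap for most genes, Srsf9 and Hnrnpab lie lower in OEx, and Srsf12 sits near the floor (its value of 0 in Ctrl 3 cannot be drawn).

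All 8 SR-related genes were higher by FDR, and 6 of 8 passed the fold criterion, beside 30.7% and 12.9% of all rows. Their median log2 fold change was 1.29. Luc7l3, which encodes a relative of the yeast U1 snRNP protein Luc7p, was at 22.9, 23.1 and 22.3 FPKM in OEx 1 to 3 and at 4.38, 4.13 and 4.63 FPKM in Ctrl 1 to 3. The mice of a group differed little and the groups lay far apart, with a log2 fold change of 2.14 ± 0.08 (SE, n = 3 per group, limma adjusted p = 1.7e-05). Its paralog Luc7l2 was at 17.8, 17.1 and 23.1 FPKM against 4.35, 4.45 and 3.86 FPKM, a log2 fold change of 1.95 ± 0.13 (limma adjusted p = 5.4e-05). Luc7l, the third member of that family, went from 6.22, 6.41 and 6.74 FPKM in Ctrl to 16.9, 16.0 and 16.6 FPKM in OEx (log2 fold change 1.23 ± 0.08, limma adjusted p = 4.4e-05). None of the 3 Luc7-like genes overlapped between the groups. An annotated noncoding gene, Gm26699, shares 18.9% of the exonic bases of Luc7l2, and its reads could not be separated.

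Srrm2 and Son encode large arginine-serine-rich scaffold proteins of nuclear speckles, the bodies where splicing factors are stored. Srrm2 was at 76.9, 84.1 and 106 FPKM in OEx and at 26.0, 26.3 and 17.2 FPKM in Ctrl, with a log2 fold change of 1.91 ± 0.20 (limma adjusted p = 0.00024). OEx 3 was the highest and Ctrl 3 the lowest mouse, and Srrm2 had the widest spread of the tested members in Ctrl (coefficient of variation 22.5%). Without replicate 3 of both groups its log2 fold change was 1.58. Son showed the same order, at 25.6, 25.9 and 35.4 FPKM against 11.5, 11.4 and 9.25 FPKM (log2 fold change 1.34 ± 0.15, limma adjusted p = 0.00036, and 1.10 without replicate 3). Srrm1, a coactivator that bridges exon-bound SR proteins and snRNPs, was higher by FDR at 0.97 on the log2 scale and did not reach the fold criterion. Tra2a and Tra2b encode SR-like activators of exons with purine-rich enhancers. Tra2a was at 17.0, 15.8 and 15.2 FPKM in OEx and at 6.70, 6.47 and 5.51 FPKM in Ctrl, without overlap (log2 fold change 1.23 ± 0.10, limma adjusted p = 9.2e-05). Tra2b had a log2 fold change of 0.61 ± 0.09 and passed FDR alone (limma adjusted p = 0.0013), but after correction for GC content and length its value was -0.34 and passed FDR in the opposite direction (limma adjusted p = 0.035).

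Among the 8 classical SR protein genes, 7 were higher and 1 lower by FDR, beside 30.7% and 36.5% of all rows. With the fold criterion 2 were called higher and 1 lower, beside 12.9% and 15.7% of all rows. The 1 called lower is 12.5% of the family, near the share over all rows. Srsf5 had the highest level of any SR gene in OEx. It was at 149.7, 148 and 183 FPKM in OEx and at 53.6, 55.4 and 54.9 FPKM in Ctrl. The groups lay far apart, although OEx 3 stood above the other OEx mice, and the log2 fold change was 1.53 ± 0.11 (limma adjusted p = 5.9e-05). Srsf1, the prototype SR protein known as SF2/ASF, was at 38.0, 36.7 and 38.3 FPKM against 15.5, 14.7 and 14.3 FPKM. Its groups did not overlap either, and its log2 fold change was 1.29 ± 0.07 (limma adjusted p = 3.7e-05). Srsf2, Srsf7, Srsf3, Srsf6 and Srsf4 had log2 fold changes of 0.88, 0.84, 0.77, 0.68 and 0.50 and passed FDR alone. After correction for GC content and length Srsf3 was at -0.029 and Srsf6 at 0.20, and neither passed FDR. Of these, Srsf4 shares 43.0% of its exonic bases with the opposite-strand gene Gm12992, and Srsf2 15.6% with Mettl23. Whether strand was used in counting was not given in the sources used here.

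Srsf9 was the exception among the SR genes. It encodes a short SR protein closely related to Srsf1, from a locus at chr5:115327177-115333080 on the plus strand (GRCm38). Srsf9 was at 29.8, 34.0 and 33.7 FPKM in OEx and at 77.3, 77.4 and 69.5 FPKM in Ctrl, so that every OEx mouse was below every Ctrl mouse. Its mean was 32.5 ± 2.32 FPKM in OEx and 74.7 ± 4.55 FPKM in Ctrl (SD, n = 3), and the log2 fold change was -1.18 ± 0.09 (limma adjusted p = 8.6e-05). Its log2 fold change stayed below 0 under every alternative. Under upper-quartile scaling (-0.90), scaling to library totals (-0.41) and correction for GC content and length (-0.74) it no longer passed the fold criterion. It was not called with library totals without the 20 most abundant genes either. Its promoter is the one printed above with the RBPJ core match. Srrm2, Srsf1, Srsf7 and Tra2b, which also held a match, were higher by FDR on the deposited values. Whether a match bears on the level was not tested.

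Srsf10 and Srsf11 differ from the classical members in activity, Srsf10 being a repressor in its dephosphorylated form. Both were called higher. Srsf11 was at 26.2, 24.9 and 30.7 FPKM in OEx and at 7.62, 8.74 and 7.59 FPKM in Ctrl (log2 fold change 1.65 ± 0.11, limma adjusted p = 5.0e-05). Srsf10 was at 21.3, 19.5 and 19.3 FPKM against 6.38, 6.06 and 6.09 FPKM (log2 fold change 1.55 ± 0.08, limma adjusted p = 3.0e-05). Neither gene overlapped between the groups.

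Of the 20 hnRNP genes tested, 8 were called higher and none lower, beside 12.9% and 15.7% of all rows. By FDR alone 14 were higher and 1 lower, beside 30.7% and 36.5% of all rows. The median log2 fold change was 0.76 against 1.23 for the 18 SR and SR-related genes tested. The difference between these medians was not tested.

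The most marked change in the set was that of Hnrnph1, at chr11:50376990-50386528 on the plus strand (GRCm38). It encodes hnRNP H1, which binds runs of guanines and acts as an activator or a repressor depending on position. Hnrnph1 was at 63.8, 60.3 and 63.4 FPKM in OEx and at 8.07, 8.32 and 10.2 FPKM in Ctrl. Every OEx mouse was far above every Ctrl mouse, with a ratio of group means of 7.04 and a log2 fold change of 2.69 ± 0.10 (limma adjusted p = 1.7e-05). Hnrnph3, a smaller relative, was at 16.7, 17.1 and 17.7 FPKM against 4.26, 3.46 and 5.05 FPKM, again without overlap (log2 fold change 1.80 ± 0.12, limma adjusted p = 5.9e-05). Hnrnph2, which encodes a protein nearly identical to hnRNP H1, was at 17.3, 15.0 and 16.2 FPKM against 7.14, 7.12 and 8.81 FPKM. Its log2 fold change of 0.98 ± 0.11 stayed just under the fold criterion (limma adjusted p = 0.00031). How reads shared by the similar members of this family were assigned is not given in the sources used here. Hnrnpf, which binds the same kind of sequence, overlapped between the groups at 49.8, 44.6 and 49.7 FPKM in OEx and 48.5, 51.4 and 44.3 FPKM in Ctrl. Its log2 fold change was -0.00 ± 0.09, and 0.77 when scaled to library totals.

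In the A/B and D families 5 of 7 genes were called higher, beside 12.9% of all rows. Hnrnpdl, a relative of Hnrnpd, was at 44.5, 42.6 and 40.7 FPKM in OEx and 9.57, 9.75 and 13.9 FPKM in Ctrl (log2 fold change 1.87 ± 0.15, limma adjusted p = 8.8e-05). Hnrnpa3 was at 21.1, 17.7 and 20.9 FPKM against 4.70, 3.94 and 5.68 FPKM (log2 fold change 1.86 ± 0.14, limma adjusted p = 7.2e-05). For both genes the lowest OEx mouse was above the highest Ctrl mouse. Hnrnpa2b1 and Hnrnpa1 encode the most abundant core hnRNPs, which oppose SR proteins at many exons. Hnrnpa2b1 was at 95.7, 88.5 and 96.1 FPKM against 35.7, 32.5 and 34.8 FPKM (log2 fold change 1.42 ± 0.08, limma adjusted p = 3.6e-05). Hnrnpa1 was at 98.8, 96.0 and 99.1 FPKM against 42.2, 38.3 and 48.5 FPKM (log2 fold change 1.18 ± 0.10, limma adjusted p = 0.00013). Hnrnpd, known as AUF1 for its binding to AU-rich elements, was at 14.4, 13.2 and 15.9 FPKM against 5.37, 5.86 and 6.43 FPKM (log2 fold change 1.17 ± 0.10, limma adjusted p = 0.00013). None of these overlapped between the groups. Hnrnpa1 and Hnrnpa3 have processed pseudogenes in the mouse genome, and how reads shared with these were counted was not given in the sources used here. Hnrnpab was lower by FDR, at 71.5, 73.5 and 72.9 FPKM against 109, 114 and 99.4 FPKM (log2 fold change -0.56 ± 0.08, limma adjusted p = 0.0012), but its sign turned to 0.22 when the libraries were scaled to their totals, and 29.1% of its exonic bases are shared with Phykpl. Hnrnpa0, an intronless gene and the most abundant member in Ctrl, was at 114, 126 and 142 FPKM in OEx and 143, 141 and 126 FPKM in Ctrl. These values overlap.

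Hnrnpu was the only gene of the remaining hnRNP families to be called. It encodes the nuclear matrix protein hnRNP U, also known as SAF-A. It was at 36.6, 35.7 and 38.6 FPKM in OEx against 15.2, 14.8 and 13.6 FPKM in Ctrl, without overlap (log2 fold change 1.29 ± 0.08, limma adjusted p = 4.5e-05). Hnrnpm, Hnrnpr, Hnrnpll, Hnrnpul2 and Hnrnpk had log2 fold changes of 0.80, 0.72, 0.63, 0.58 and 0.48 and passed FDR alone. After correction for GC content and length 3 of these turned negative, Hnrnpr at -0.43 (limma adjusted p = 0.0085), Hnrnpll at -0.33 (limma adjusted p = 0.037) and Hnrnpk at -0.077, which did not pass FDR. Hnrnpc, Hnrnpl and Hnrnpul1 had log2 fold changes of -0.06, -0.07 and -0.14, overlapped between the groups and did not pass FDR. With scaling to library totals those 3 values were 0.70, 0.70 and 0.61, so their direction depends on the scaling.

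The libraries differed in composition. The most abundant gene took 14.2% to 22.0% of recovered reads in Ctrl and at most 1.12% in OEx, and the denominator behind the FPKM exceeded the recovered reads in OEx (ratio 1.22 to 1.34) and fell short of them in Ctrl (0.726 to 0.815). Scaling to library totals moved the median of all rows from -0.08 to 0.56 and that of the set from 0.98 to 1.71. It called 31 members higher and none lower, where 30.6% of all rows were called higher. The set's median thus exceeded that of all rows by 1.06 as deposited and by 1.15 after scaling to totals. Only Srsf9 was then below 0. The 3 settings are drawn side by side for every tested member.

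**Figure D2:**
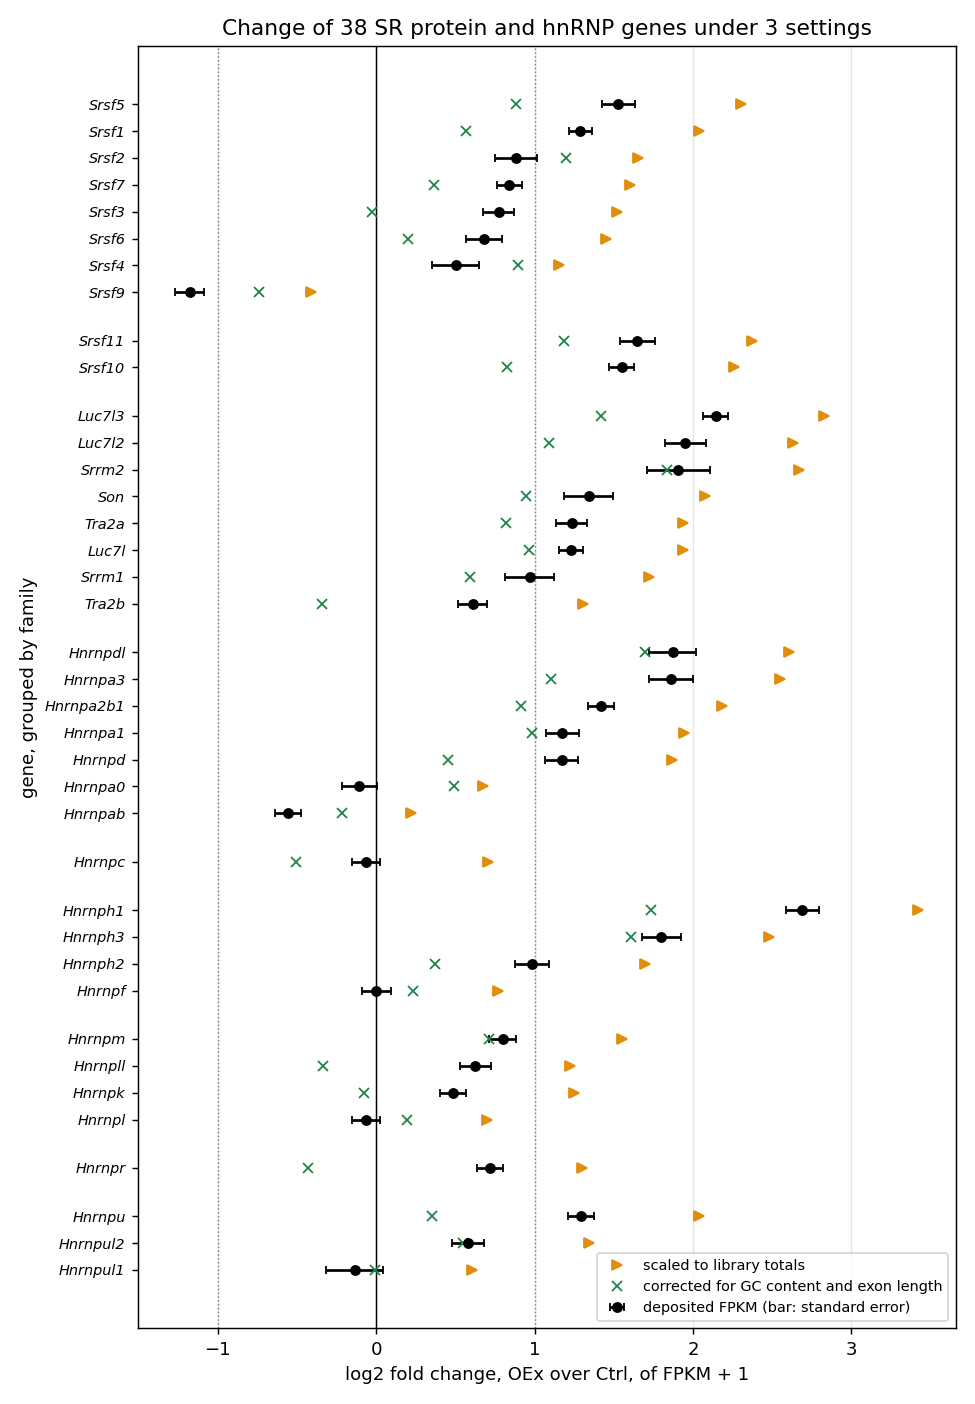
Log2 fold change of OEx over Ctrl for the 38 tested genes by family, from the deposited FPKM (black, with the standard error), after scaling to library totals (orange) and after correction for GC content and exon length (green), with dotted lines at a fold change of 2. Every gene moves to the right with library totals, which turns Hnrnpab, Hnrnpa0, Hnrnpc, Hnrnpf, Hnrnpl and Hnrnpul1 positive, while the correction turns Tra2b, Srsf3, Hnrnpk, Hnrnpll and Hnrnpr negative and Hnrnpa0, Hnrnpf and Hnrnpl positive.

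The members' transcripts were poor in GC and long. Their median GC content was 43.9% (range 37.1% to 55.4%) beside 50.1% over all rows with an annotated transcript, and their median exon length was 6525 bases beside 3831. Across the 38 genes, GC content and log2 fold change had a Spearman correlation of -0.42 and a Pearson correlation of -0.51, and across all 12463 such rows the Spearman correlation was -0.37. These are descriptions over genes of the same 6 libraries. In transcripts below 42% GC, the median log2 fold change was 1.29 for 15 members and 0.73 for all rows. From 42% to under 46% it was 1.18 for 9 members and 0.33 for all rows, and from 46% to under 50% it was 0.80 for 9 members and 0.0043 for all rows. At 50% and above, the 5 members had a median of -0.07 and all rows -0.39, and there Srrm2 alone was called.

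After the trends with GC content and length were removed, 9 members were called higher and none lower, where 11.0% of all rows were called higher, and the set's median log2 fold change was 0.58. By FDR alone 28 were then higher and 6 lower, beside 29.5% and 31.1% of all rows. Of the 6, Srsf9 and Hnrnpab were lower before the correction too, Hnrnpc had not passed FDR, and Tra2b, Hnrnpll and Hnrnpr had been higher by FDR on the deposited values. Of the 18 genes called on the deposited values, 8 remained, namely Hnrnph1 (1.74), Srrm2 (1.83), Hnrnpdl (1.70), Hnrnph3 (1.61), Luc7l3 (1.42), Srsf11 (1.18), Hnrnpa3 (1.10) and Luc7l2 (1.09). Srsf2 entered at 1.20. The 10 that fell under the fold criterion were Srsf1, Srsf5, Srsf10, Tra2a, Luc7l, Son, Hnrnpa1, Hnrnpa2b1, Hnrnpd and Hnrnpu. All 10 kept a positive value and an adjusted p under 0.05 by limma. Hnrnpu had the lowest value of these, at 0.35, and Hnrnpa1 the highest, at 0.98.

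**Figure D3:**
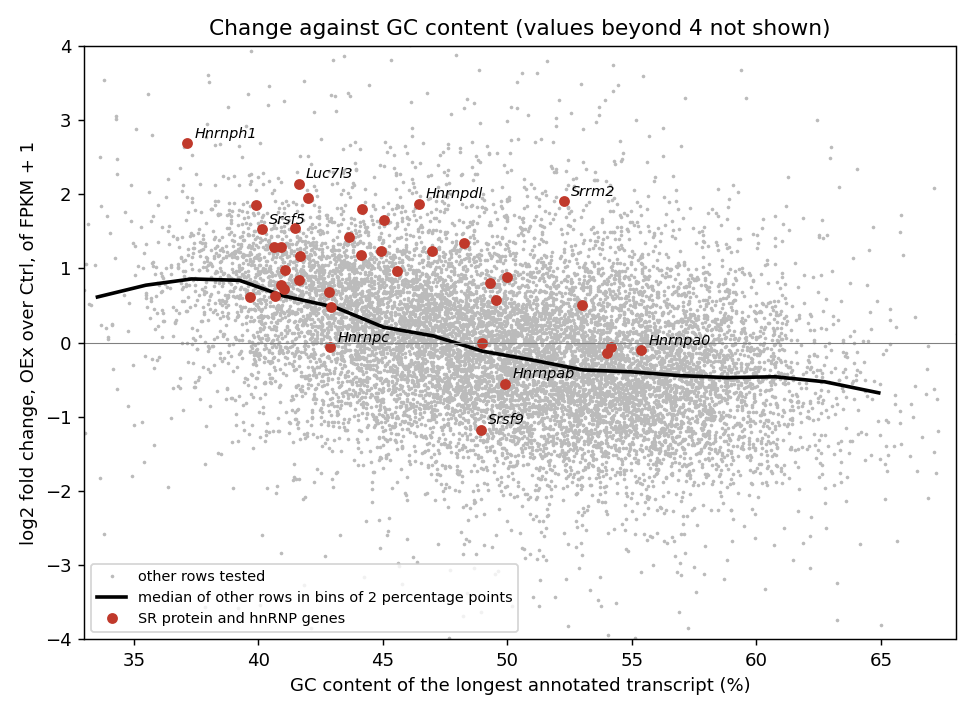
Log2 fold change of OEx over Ctrl against the GC content of each gene's longest annotated transcript in percent, for the members (red) and the other tested rows (grey), with the binned median of the other rows as a black line. The line falls from left to right, most members lie above it, and Srsf9, Hnrnpab and Hnrnpc lie well below it.

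A ratio of related genes within one mouse does not depend on how the libraries were scaled, but it can depend on GC content and length where the genes of a pair differ in them. Of 14 pairs of paralogs or close relatives, 13 could be formed. In 11 of them the ratios of the 3 OEx mice did not overlap those of the 3 Ctrl mice. Among all single rows tested, the OEx mice were all above the Ctrl mice for 33.4% and all below for 38.9%. The share over ratios of other gene pairs was not computed. Each of these 11 pairs reached p = 0.1 in an exact two-sided permutation test, the smallest p that 3 against 3 allows. After Benjamini-Hochberg adjustment over the 13 pairs this p was 0.118, so no pair could pass 0.05. Srsf1 over Srsf9 was 1.08 to 1.27 in OEx and 0.190 to 0.205 in Ctrl, so that the FPKM of Srsf1 went from well below to slightly above that of Srsf9. Hnrnph1 over Hnrnpf was 1.28 to 1.35 in OEx and 0.162 to 0.231 in Ctrl. Hnrnph1 over Hnrnph2 was 3.68 to 4.02 against 1.13 to 1.17. The leading hnRNP of this family by FPKM was therefore Hnrnph1 in OEx and Hnrnpf in Ctrl.

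Tra2a over Tra2b was 1.48 to 1.60 in OEx and 0.834 to 1.09 in Ctrl. Srrm1 over Srrm2 was 0.451 to 0.495 in OEx and 0.838 to 0.977 in Ctrl, and Luc7l over Luc7l2 was 0.719 to 0.949 against 1.43 to 1.75. In these pairs the partner with the higher fold change was Tra2a, Srrm2 and Luc7l2. Among the hnRNP pairs, Hnrnpa1 over Hnrnpa3 was 4.69 to 5.44 against 8.53 to 9.72, and Hnrnpl over Hnrnpll was 9.28 to 10.7 against 16.8 to 20.0. Hnrnpd over Hnrnpdl, Hnrnpul1 over Hnrnpul2 and Hnrnpa1 over Hnrnpa2b1 were also lower in every OEx mouse. Srsf3 over Srsf7 (exact permutation p = 0.6) and Srsf4 over Srsf6 (exact permutation p = 0.5) overlapped between the groups.

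With each gene corrected for GC content and length, an alternative chosen after seeing the data, several of these differences between the groups shrank or turned. The correction was made on log2(FPKM + 1), so the values before and after it are given on that scale, unlike the FPKM ratios above. OEx minus Ctrl went from -0.69 to 0.53 for Hnrnpl over Hnrnpll and from -0.24 to 0.069 for Hnrnpa1 over Hnrnpa2b1. For Srsf4 over Srsf6 it went from -0.18 to 0.69. The difference shrank from -0.69 to -0.12 for Hnrnpa1 over Hnrnpa3 and from -0.72 to -0.13 for Luc7l over Luc7l2. Srsf1 over Srsf9 went from 2.47 to 1.31, Hnrnph1 over Hnrnpf from 2.69 to 1.51 and Hnrnph1 over Hnrnph2 from 1.71 to 1.36, all still above 0. Tra2a over Tra2b (0.62 to 1.16), Srrm1 over Srrm2 (-0.94 to -1.24) and Hnrnpd over Hnrnpdl (-0.70 to -1.25) widened.

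**Figure D4:**
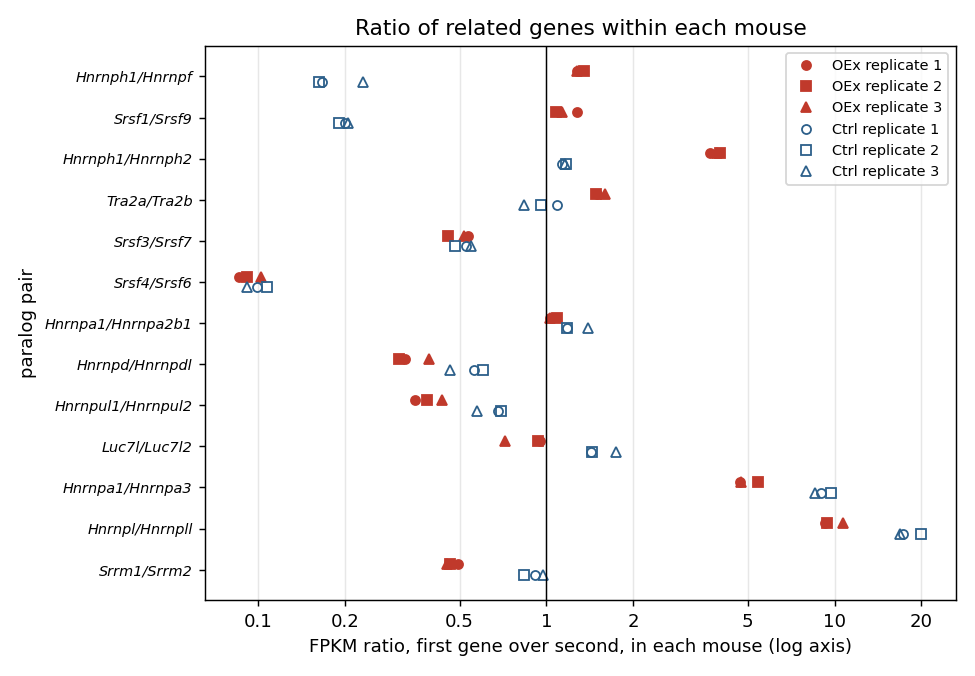
FPKM of the first gene over that of the second in each mouse, on a log axis, for 13 pairs of related genes, with OEx filled in red and Ctrl open in blue. The groups separate in 11 pairs and overlap for Srsf3/Srsf7 and Srsf4/Srsf6, the difference of Hnrnpl/Hnrnpll and Hnrnpa1/Hnrnpa2b1 turns with correction for GC content and length, and the vertical line marks equal FPKM.

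Summed over the 39 genes, the set held 1659 ± 93.3 FPKM in OEx and 1007 ± 42.5 FPKM in Ctrl (SD, n = 3). The SR and SR-related genes summed to 758 ± 59.9 FPKM in OEx and 376 ± 25.8 FPKM in Ctrl, and the hnRNP genes to 901 ± 33.8 and 631 ± 16.9 FPKM. In both sums every OEx mouse was above every Ctrl mouse. As a share of all recovered reads the set took 1.24% ± 0.016 in OEx and 0.368% ± 0.0056 in Ctrl. The ratio of OEx to Ctrl was 3.38 for this share and 1.65 for the summed FPKM, whose denominators differ from the read totals as given above. The order within the set also changed. Srsf5 took 9.63% of the summed FPKM in OEx, the leading share, and ranked 4 in Ctrl at 5.43%. Hnrnpa0 led in Ctrl at 13.6% and ranked 2 in OEx at 7.66%, and Hnrnpab went from rank 2 in Ctrl at 10.7% to rank 7 in OEx at 4.39%. Hnrnph1 held 0.885% in Ctrl, rank 24, and 3.77% in OEx, rank 9.

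The spread among mice was small beside these differences. The median coefficient of variation over the tested members was 5.94% in OEx and 8.47% in Ctrl, and the highest in OEx was 19.5% for Hnrnpul1. OEx 3 was the highest OEx mouse for 23 of the 38 genes and Ctrl 3 the lowest Ctrl mouse for 19. Both held for 15 genes, among them Srrm2, Son, Srrm1, Luc7l2 and Hnrnpul1.

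Transcripts annotated as targets of NMD are common in these families. GENCODE vM21 lists at least 1 such transcript for 27 of the 38 tested members (71.1%) beside 28.6% of the 10821 tested protein-coding genes, and at least 1 retained-intron transcript for 30 (78.9% beside 59.2%). Of the 27 members with an NMD transcript, 15 were called higher, with a median log2 fold change of 1.18. Of the 11 without one, 3 were called higher, with a median of 0.58, and these were Hnrnph1, Hnrnpa3 and Srsf10. Over all rows tested, 12.9% were called higher. The difference between members with and without an NMD transcript was not tested. Over all protein-coding genes the medians were 0.03 with and -0.12 without an NMD transcript. The values are sums over all transcripts of a gene, so the share of productive and NMD transcripts was not measured.

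The rest of the splicing machinery was described from lists of its known components. For the counts of all lists below, 12.9% of all rows were called higher and 15.7% lower. By FDR alone 30.7% of all rows were higher and 36.5% lower. The share of all rows called higher was 30.6% with library totals and 11.0% after correction for GC content and length. Of 55 genes for core snRNP and spliceosome proteins, 1 was called higher and 3 lower, 8 and 19 by FDR alone, and their median log2 fold change was -0.15, which turned to 0.55 with library totals and was near the median of all rows in both scalings. The one called higher was Sf3b1, the U2 snRNP subunit that holds the branch site, at 30.1, 27.8 and 31.5 FPKM against 8.44, 8.24 and 8.95 FPKM (log2 fold change 1.69, and 0.86 after correction for GC content and length). The 3 called lower were Snrpd2 (-1.56), Sf3b5 (-1.31) and Lsm4 (-1.12), small structural subunits. With library totals 10 genes of the list were called higher and none lower. After correction for GC content and length 1 was called higher and 5 lower. The 1 called higher was then Snrnp70 (1.24), a gene outside the naming rule. Snrpd2 was at -1.06, Sf3b5 at -1.48 and Lsm4 at -0.29, so Lsm4 was no longer called. The core list had a median GC content of 49.0%, higher than that of the members.

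Of 35 other splicing regulators, 34 were tested, 10 were called higher and none lower (22 and 2 by FDR alone), and the median log2 fold change was 0.64 (0.27 after correction for GC content and length, with 6 called higher). Pnn, a speckle protein of the exon junction periphery, led this list at 26.2, 26.4 and 26.0 FPKM against 4.62, 4.30 and 4.31 FPKM (log2 fold change 2.33). The arginine-serine-rich regulators Rbm39 and Rbm25 had log2 fold changes of 1.81 and 1.79, and 1.24 and 0.48 after the correction. With library totals 22 of the list were called higher.

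SR proteins enter the nucleus and their speckles according to the phosphorylation of their arginine-serine domains. Of 11 genes for the kinases and import receptors that act on them, 10 were tested, all 10 were higher by FDR and 3 were called higher, with a median log2 fold change of 0.70. Those 3 were Prpf4b (1.81), Clk1 (1.79) and Clk4 (1.54), and after correction for GC content and length they were at 0.98, 0.85 and 0.69, none past the fold criterion. The list's median was then 0.29 and its 1 call was Clk2 (1.29), a gene outside the naming rule. With library totals 9 of the 10 were called higher. Clk1 was at 24.3, 23.0 and 25.0 FPKM in OEx and at 5.72, 5.81 and 7.40 FPKM in Ctrl. The cytoplasmic SR kinases Srpk1 and Srpk2 had log2 fold changes of 0.41 and 0.49, which the correction for GC content and length turned to -0.21 and -0.55. The SR protein importer Tnpo3 had 0.59, and 0.18 after the correction.

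Of 13 genes for the exon junction complex and NMD, 3 were called higher and none lower (3 and 4 by FDR alone), and the median change was 0.0037 on the log2 scale. The 3 were Smg1 (1.61), the kinase that phosphorylates the NMD helicase Upf1, and the NMD factors Upf3b (1.496) and Upf2 (1.36). With library totals the same 3 were called and the list's median was 0.65. None of the 4 genes lower by FDR was then still lower by FDR. After correction for GC content and length, Rbm8a (-0.74), Magoh (-0.74) and Upf3a (-0.44) were still lower by FDR and Eif4a3 (-0.20) was not. These 4 genes are outside the naming rule. With the same correction Upf3b alone was called (1.07), with Smg1 at 0.78 and Upf2 at 0.90. Upf1 itself had a log2 fold change of 0.01 and did not pass FDR. Malat1, a nuclear RNA that accumulates in speckles, was at 91.5, 106 and 88.2 FPKM in OEx and at 32.7, 36.6 and 28.8 FPKM in Ctrl (log2 fold change 1.52, and 0.89 after the correction). Neat1, the scaffold RNA of paraspeckles, had a log2 fold change of 1.63, and 1.05 after the correction.

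**Figure D5:**
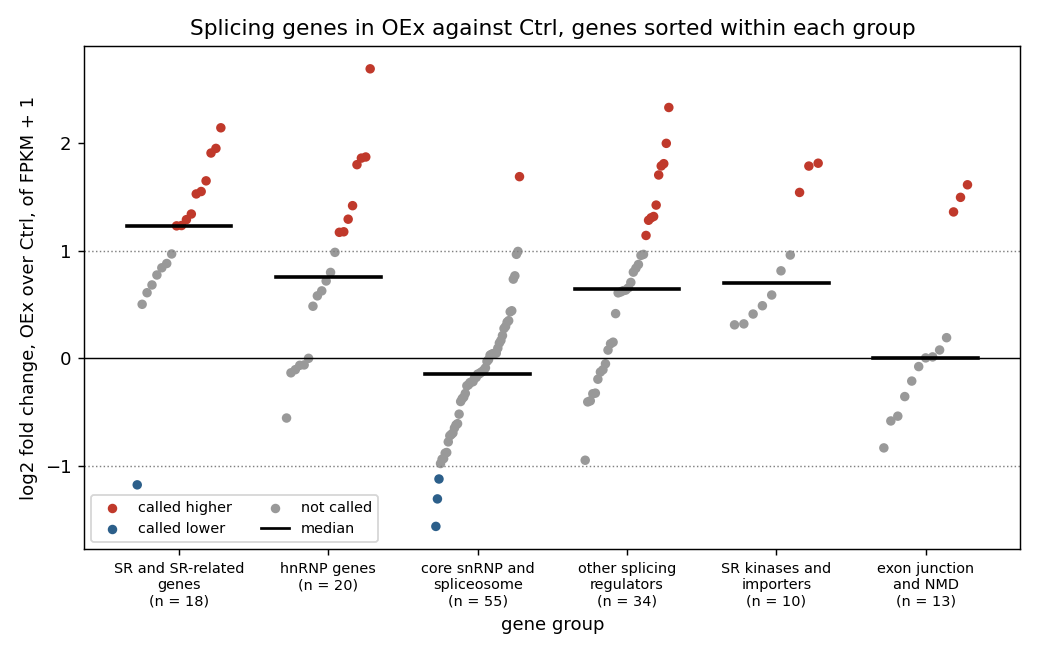
Log2 fold change of OEx over Ctrl for the tested genes of 6 groups, sorted within each group, with called genes in red (higher) and blue (lower) and the group median as a black bar. The SR and hnRNP groups, the other regulators and the SR kinases have medians above 0, and the core spliceosome genes spread around a median just below 0, which library totals turn to 0.55.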

How the data were processed

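The submitters sequenced TruSeq libraries of AP total RNA on an Illumina HiSeq system, and their notes name HISAT2 2.0.5, StringTie 1.3.3b and featureCounts 1.5.0-p3. The genome build and the use of strand were not given in the sources used here. The deposited values are FPKM per gene and mouse, whose normalization by the authors was not to the read totals. Reads were recovered from the deposited FPKM and the exon lengths of GENCODE vM21 (GRCm38), to which 53710 of 55076 rows matched by symbol. Of values under 1000 reads, 96.9% to 97.5% were whole within 0.05.

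Rows averaging 1 FPKM or more over the 6 mice were fitted on log2(FPKM + 1) with limma 3.58.1 (eBayes with trend, R 4.3.3), and fold changes are on that scale, which understates low genes. The p-values were adjusted by Benjamini-Hochberg over all 12833 rows. GC content and length trends were removed per mouse by lowess with a span of 0.3, over 12463 rows with both values. Tested members had at least 405 reads in each OEx mouse and 141 in each Ctrl mouse. Paralog ratios were compared by exact permutation. The scripts were tested on simulated data.

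The labels number the mice 1 to 3 in both groups. They do not say whether same-numbered mice belong together, and the numbers were not treated as pairs. Deviations of same-numbered mice from their group means had correlations of -0.19, -0.19 and -0.31, which cannot exclude pairing with so few mice. The members and the gene lists were chosen with earlier results of these data known. All members could be named, with full statistics for those called, and up to 4 called genes of each list. Some genes of the lists are not reported here by name. Alternatives were upper-quartile scaling, library totals with and without the 20 most abundant genes, a pseudocount of 0.1, no filter, at least 10 reads in every mouse, limma-voom, a replicate block, GC and length correction, an FDR of 0.01 and leaving out each mouse. No protein sequence was used here.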

Additional observations from a re-analysis of the deposited data

How the results depend on the processing

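Of the counts of members, 18 called higher became 31 with library totals or by FDR alone, and 9 with correction for GC content and length, with or without the replicate block. The other scalings gave 24 and 25, limma-voom and a pseudocount of 0.1 gave 20, and leaving out single mice gave 18 to 20. The 1 called lower became 0 under upper-quartile scaling, library totals, library totals without the 20 most abundant genes and the GC and length correction with or without the block, and 2 by FDR alone. Members lower by FDR numbered 1 with library totals and with totals without the 20 most abundant genes, 6 with the GC and length correction, and 2 to 5 when mice were left out, the 5 coming without replicate 3 of both groups. The median of 0.98 was 1.24 under upper-quartile scaling, 1.71 with library totals, 1.297 for totals without the 20 most abundant genes and 0.58 with the GC and length correction, with or without the block. Its excess of 1.06 over all rows was 1.15 with library totals, 0.94 without a filter, where more low rows entered, and 0.58 with the correction.

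Under the GC and length correction, with or without the block, the sign turned for Tra2b (-0.34), Srsf3 (-0.029), Hnrnpk (-0.077), Hnrnpll (-0.33), Hnrnpr (-0.43), Hnrnpa0 (0.49), Hnrnpf (0.23) and Hnrnpl (0.19). Under upper-quartile scaling, library totals and totals without the 20 most abundant genes, in that order, it turned for Hnrnpa0 (0.17, 0.67 and 0.23), Hnrnpc (0.21, 0.70 and 0.27), Hnrnpf (0.27, 0.77 and 0.33), Hnrnpl (0.21, 0.70 and 0.27) and Hnrnpul1 (0.13, 0.61 and 0.19), and with library totals for Hnrnpab (0.22). Leaving out single mice gave -0.081 to 0.051 for Hnrnpf (the lowest without replicate 3 of both groups) and -0.10 to 0.016 for the Srsf3/Srsf7 log2 ratio. The GC and length correction turned the log2 ratio differences of Srsf4/Srsf6 (0.69), Hnrnpa1/Hnrnpa2b1 (0.069) and Hnrnpl/Hnrnpll (0.53). The construction of each scaling sets these shifts in common, and beyond that the cause was not tested.

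The replicate block gave 18 called higher and 1 lower and changed no member's call, and by FDR alone 30 were higher and 2 lower. Same-numbered mice correlated at -0.23 on average in their deviations from the group means. With 3 mice per group and replicate 3 apart in both, this cannot show whether the numbers mark pairs. Of 646 values of single genes under the alternatives, 547 kept their direction and their side of the threshold, 39 came to pass it, 25 no longer passed it and 35 changed sign. With 3 mice per group, a permutation test of a single value cannot reach 0.05, and the levels of Srsf12 are limited by depth.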

Other observations

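Of 6 proliferation genes, 5 were tested and 1 was called higher, Mki67 at 2.82, 2.71 and 2.22 FPKM in OEx against 0.207, 0.131 and 0.307 FPKM in Ctrl (log2 fold change 1.56). Top2a, Pcna, Cdk1 and Mcm2 had log2 fold changes of 0.21 to 0.36 and did not pass FDR. With library totals their values were 0.74 to 0.98, and each passed FDR but not the fold criterion. The 2 secretory genes Tgm4 and Pbsn were lower in OEx, at -5.44 and -2.60 on the log2 scale, and Msmb was higher at 4.60. Of the 4 endothelial markers, Emcn was called lower at -2.03. The luminal markers went both ways. Krt18 was called lower at -1.49, Krt8 (-0.43) was lower by FDR alone, Cdh1 (0.63) was higher by FDR alone, and Epcam (0.45) did not pass FDR although every OEx mouse was above every Ctrl mouse, and Krt8 turned to 0.35 with library totals. The 5 smooth muscle and 3 basal markers were all called lower on the deposited values. Of the smooth muscle markers, 2 were still called with library totals, where Des and Myh11 were both at -0.40, and 3 after correction for GC content and length. The 6 fibroblast markers had log2 fold changes of -0.28 to 1.57, the 4 tested leukocyte markers 0.45 to 1.08 and the 4 tested seminal vesicle genes -5.32 to -2.88, and each of these 3 lists had a group with one mouse far from the others and no gene past FDR in limma. Their part in the changes of the splicing genes was not tested.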
